A study of Drosophila melanogaster with 16 samples.

Results

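The 8 genes described here encode subunits of the Non-Specific Lethal (NSL) complex or cofactors of the Male Specific Lethal (MSL) complex. Both complexes hold the histone acetyltransferase MOF. Transcript levels of the 8 genes were followed across RNA-seq group means of third-instar Drosophila melanogaster larvae. The genes were the 6 of the NSL complex other than mof (nsl1, dgt1, Rcd1, Rcd5, MBD-R2 and wds) and the MSL cofactors JIL-1 and Unr. Members were chosen by gene name, and all transcript rows of a name were summed, which gave 8 of the 16074 gene symbols in the deposited tables, all 8 present in both tables. The autosomal table holds diploid females and males, trisomy 2L females and males, and MSL2-trisomy 2L females and males, and the sex chromosome table holds diploid females and males, metafemales and MSL2-metafemales.

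Trisomy 2L larvae, with 3 copies of the left arm of chromosome 2, came from mothers carrying y; C(2L)dp; F(2R) bw and fathers of the Canton S stock. Metafemales, with 3 X chromosomes, came from mothers carrying C(1)DX, ywf/winscy and Canton S fathers. The MSL2 groups had the same mothers, and their fathers were homozygous for an MSL2 transgene on 2R, whose promoter is not given in the sources used here. Diploids were Canton S larvae, so the diploid controls lacked the compound chromosomes and differed in stock as well as in dosage. Each library pooled whole larvae raised at 25 °C. The labels describe 16 libraries in 6 groups, 3 libraries for each trisomy group and 2 for each metafemale group, while the diploids have no labelled library here. Which libraries, and how many, entered each mean is not known, since the methods describe further libraries of the trisomy 2L, metafemale and diploid groups. Each value below is 1 mean over libraries made by the authors, in CPM (read counts scaled to library size) after batch adjustment, so no replicate spread, test or depth could be had, and no difference below could be set against replicate error. A member was called higher or lower when 2 means differed by more than 1.5-fold, a description of these means only.

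In both sexes, MOF within the NSL complex acetylates histone H4 at the promoters of housekeeping genes on all chromosomes. In male flies the MSL complex also carries MOF along the single X, where it raises transcription of X-linked genes. Females lack this complex because Sxl, together with Unr, represses translation of the msl-2 messenger RNA. The NSL subunits are thus present in both sexes, and they draw on the same enzyme as the MSL complex.

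The msl-2 level was the check on the labels of the MSL2 groups. In the autosomal table its means were 8.99 CPM in diploid females, 22.6 in diploid males, 20.1 and 52.8 in trisomy 2L females and males, 177 in MSL2-trisomy 2L females and 266 in MSL2-trisomy 2L males. In the sex chromosome table they were 12.3 CPM in diploid females, 6.97 in diploid males, 8.31 in metafemales and 95.3 in MSL2-metafemales. Diploid males were 2.51-fold above diploid females in the autosomal table but at 0.568 of them in the sex chromosome table. All 3 MSL2 groups thus lay above every other group of their table, by 8.80-fold over trisomy 2L females, 5.04-fold over trisomy 2L males and 11.5-fold over metafemales, and reads of the transgene and of the native gene were not separated. Tissue markers differed between the groups too. The summed mean of 6 salivary glue genes was 28289 and 27341 CPM in diploid females and males of the autosomal table against 791 to 11093 CPM in the trisomy groups. In the other table this sum was 41161 CPM in diploid females, 3918 in metafemales and 2092 with the transgene added. The 6 spermatocyte genes summed to 351 to 495 CPM in the male means and to at most 3.33 CPM in the female means. Across all 10 means the other marker sums ranged from 23601 to 125731 CPM for fat body, 5148 to 19694 CPM for midgut, 155 to 355 CPM for dividing cells, 77.9 to 157 CPM for neurons and 1.12 to 25.6 CPM for germ cells. In whole larvae, fewer cells of a type and less RNA per cell cannot be told apart, and the part of tissue make-up in the results below was not tested.

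None of the 8 genes lies on 2L, so their copy number did not change in trisomy 2L. The genes nsl1 (3R, 15793782 to 15802102), dgt1 (3R, 29854695 to 29857491) and MBD-R2 (3R, 12352143 to 12356265) lie on 3R. Rcd5 (3L, 4040529 to 4042597), JIL-1 (3L, 11078752 to 11093193) and Unr (3L, 8432322 to 8442381) lie on 3L, Rcd1 (2R, 14148263 to 14153123) on 2R, and wds (X, 2585980 to 2588217) is the only X-linked member, all on Release 6 of the genome. The exons of 7 members overlap no exon of another gene, and dgt1 shares 5 exon bases with Cad99C on the opposite strand. All 8 were at 12.2 CPM or more in every mean. Per kilobase of the longest annotated transcript, Rcd5 had the highest average level over the autosomal table, 23.6 CPM per kb, and nsl1 the lowest, 2.78 CPM per kb, with JIL-1 at 5.67 CPM per kb. In the sex chromosome table Rcd5 was again the highest, at 19.2 CPM per kb.

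**Figure D1:**
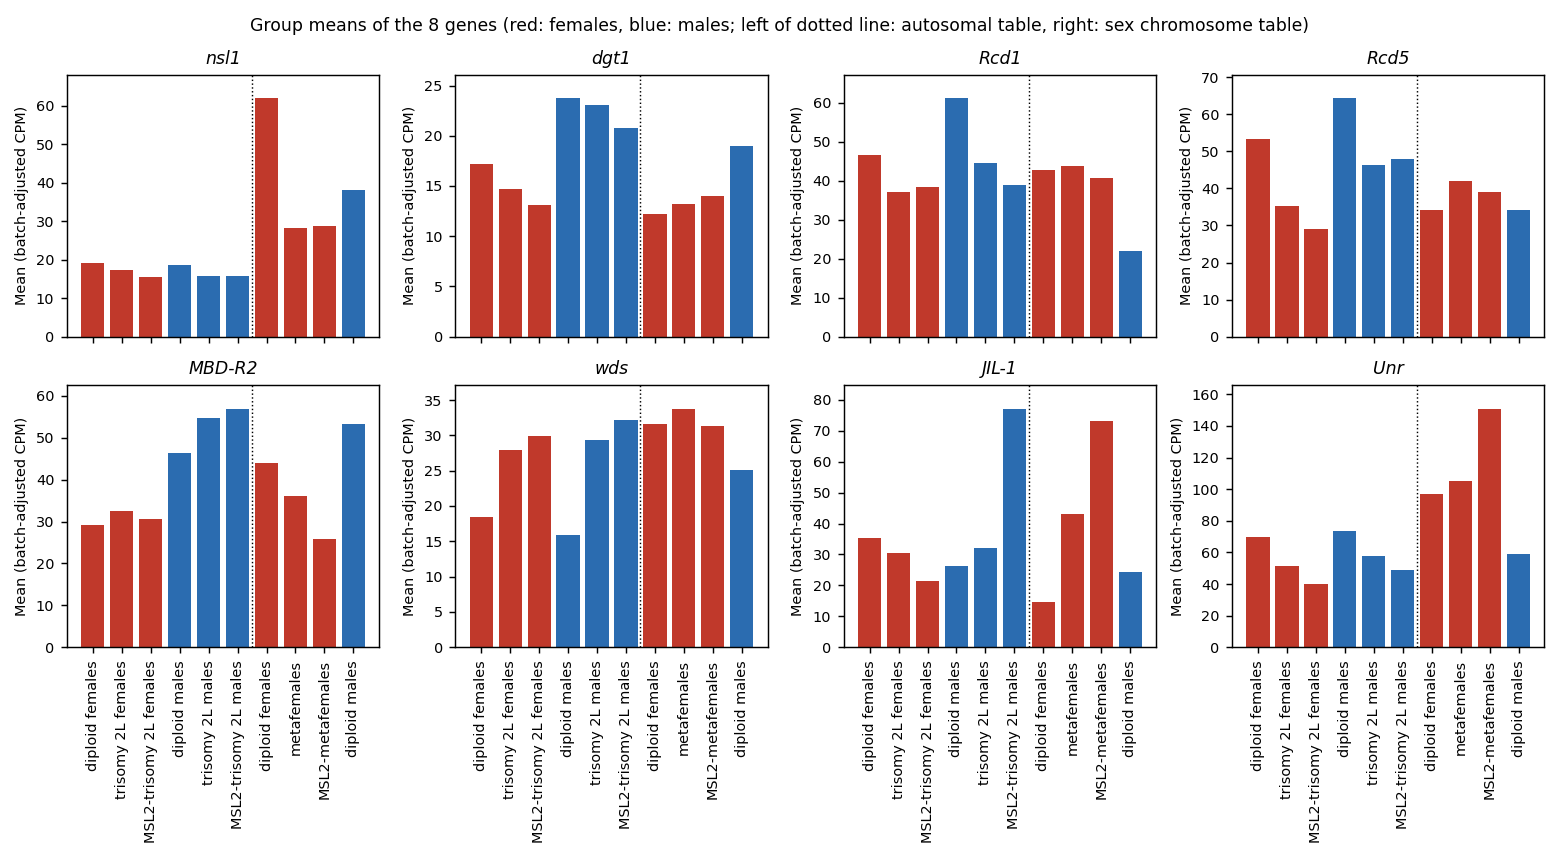
Bars give the mean level of each gene in batch-adjusted CPM, with female means in red and male means in blue, and the dotted line parts the autosomal table (left) from the sex chromosome table (right), which were normalised separately. No error bars exist for these means. JIL-1 reached 77.0 CPM in MSL2-trisomy 2L males and 73.2 CPM in MSL2-metafemales, while nsl1 stayed between 15.5 and 19.3 CPM in the whole autosomal table.

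The scaffold subunit of the complex, encoded by nsl1, varied least among the members in the autosomal table. Its means there were 19.3 CPM in diploid females, 18.6 in diploid males, 17.4 and 15.7 in trisomy 2L females and males, 15.5 in MSL2-trisomy 2L females and 15.8 in MSL2-trisomy 2L males. In the other table nsl1 was at 62.0 CPM in diploid females, 38.1 in diploid males, 28.2 in metafemales and 28.7 in MSL2-metafemales. The highest of these, in diploid females, rested on 1 transcript row, r29664, which held 42.1 of the 62.0 CPM there against 12.7 CPM in diploid males, 7.59 in metafemales and only 0.0702 CPM with the transgene. That row's coordinates fit more than 1 annotated transcript.

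The NSL2 subunit is encoded by dgt1, named after a screen for dim gamma-tubulin at the spindle. Its autosomal means were 17.1 CPM in diploid females and 23.7 in diploid males, 14.7 and 23.0 in trisomy 2L females and males, and 13.1 and 20.8 in MSL2-trisomy 2L females and males. Diploid females of the sex chromosome table had dgt1 at 12.2 CPM, diploid males at 19.0, metafemales at 13.2 and MSL2-metafemales at 14.0. Within each table, every male mean of dgt1 lay above every female mean.

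Rcd1 encodes the NSL3 subunit. In the autosomal table its means were 46.5 CPM in diploid females and 61.2 in diploid males, 37.2 and 44.5 in trisomy 2L females and males, and 38.5 and 39.0 in MSL2-trisomy 2L females and males. The sex chromosome table gave Rcd1 at 42.8 CPM in diploid females, 22.0 in diploid males, 43.9 in metafemales and 40.7 in MSL2-metafemales. The male mean was thus the highest of Rcd1 in the autosomal table and the lowest in the sex chromosome table, both in diploids. The autosomal diploid male mean included transcript rows without a mean in any female column of that table.

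Rcd5 encodes the MCRS2 subunit. For this gene the autosomal means were 53.3 CPM in diploid females and 64.3 in diploid males, 35.1 and 46.2 in trisomy 2L females and males, and 29.1 and 47.9 in MSL2-trisomy 2L females and males. For Rcd5 the sex chromosome table gave 34.0 CPM in diploid females, 34.3 in diploid males, 41.9 in metafemales and 38.9 in MSL2-metafemales. Both diploid means of the autosomal table lay above all 4 aneuploid means there, whereas the metafemale means lay above both diploids of their own table.

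MBD-R2, a subunit with a domain related to methyl-CpG-binding proteins, had a separate male and female level in every group. Its autosomal means were 29.2 CPM in diploid females and 46.4 in diploid males, 32.6 and 54.8 in trisomy 2L females and males, and 30.6 and 56.8 in MSL2-trisomy 2L females and males. Levels of MBD-R2 in the sex chromosome table were 44.0 CPM in diploid females, 53.4 in diploid males, 36.2 in metafemales and 25.8 in MSL2-metafemales. As for dgt1, no female mean reached a male mean of the same table.

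The WD40-repeat protein of wds also belongs to histone H3 methyltransferase complexes. Its autosomal means were 18.4 CPM in diploid females and 15.9 in diploid males, 28.0 and 29.3 in trisomy 2L females and males, and 29.96 and 32.2 in MSL2-trisomy 2L females and males. For wds the sex chromosome table gave 31.7 CPM in diploid females, 25.1 in diploid males, 33.7 in metafemales and 31.4 in MSL2-metafemales. In the autosomal table all 4 aneuploid means exceeded both diploid means.

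JIL-1, a histone H3 kinase enriched on the male X, was the most variable member. Its autosomal means were 35.4 CPM in diploid females and 26.2 in diploid males, 30.6 and 32.2 in trisomy 2L females and males, and 21.4 and 77.0 in MSL2-trisomy 2L females and males. Among metafemales and their diploids JIL-1 was at 14.5 CPM in diploid females, 24.4 in diploid males, 43.1 in metafemales and 73.2 in MSL2-metafemales. The highest mean was 3.60-fold and 5.03-fold above the lowest in the autosomal and sex chromosome tables, and both highest means were those of MSL2 groups.

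Unr, a cold-shock-domain RNA-binding protein, acts with Sxl on msl-2 mRNA in females and in males favours assembly of the MSL complex. Its autosomal means were 69.8 CPM in diploid females and 73.7 in diploid males, 51.5 and 57.5 in trisomy 2L females and males, and 40.0 and 48.7 in MSL2-trisomy 2L females and males. Among metafemales and their diploids Unr was at 97.1 CPM in diploid females, 58.8 in diploid males, 105 in metafemales and 151 in MSL2-metafemales. In each sex of the autosomal table the Unr sum was highest in diploids and lowest with the transgene, and in the sex chromosome table the MSL2 group was the highest. The male sum with the transgene lacked transcript rows that had no mean there, as given below.

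The trisomy 2L comparison asked how an extra autosomal arm bears on genes elsewhere. In females wds was higher than in diploids, by 1.52-fold, and Rcd5 was lower, at 0.660 of the diploid mean, so 1 of 8 members was higher and 1 lower, where 24.7% of the 13660 genes with both means were higher and 26.7% lower. In males only wds passed 1.5-fold, at 1.84-fold, with a background of 22.9% higher and 33.9% lower. With only 8 members, these counts were not read as a difference from all genes. Over genes of at least 10 CPM the shares were 23.6% higher and 21.4% lower in females, and 22.1% and 31.8% in males. Counted only over genes of at least 10 CPM, as all members were, the background over the 13 comparisons ran from 7.13% to 31.7% higher and from 4.83% to 35.3% lower. The members' median log2 ratio was -0.21 in females and -0.15 in males, beside -0.10 and -0.19 over all genes. Members other than JIL-1 had the same direction in both sexes: nsl1, dgt1, Rcd1, Rcd5 and Unr lay below the diploid mean and MBD-R2 and wds above it. For some members, JIL-1 among them, the direction depended on the processing. With the trimmed mean set to 0 the log2 ratio of dgt1 in males went from -0.04 to 0.14, and with the transcript of highest mean those of nsl1 and dgt1 in females were 0.22 and 0.11. On transcripts with a mean in every group, Rcd1 in males went from -0.46 to 0.19. JIL-1 in males went from 0.30 to 1.03 in that setting, and to -0.15, below 0 as in females, with the transcript of highest mean. Unr was at 0.739 of the diploid mean in females and 0.780 in males, Rcd1 at 0.800 and 0.727, and JIL-1 at 0.866 and 1.23. The wds difference in females was under 1.5-fold with equal column totals (log2 ratio 0.56), and that of Rcd5 with a trimmed mean of ratios set to 0 (log2 ratio -0.51), while wds in males was past it under all 8 alternatives.

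In metafemales JIL-1 was 2.96-fold higher than in diploid females and nsl1 was at 0.455 of the diploid mean. That is 1 higher and 1 lower member, against 19.6% and 31.9% of all 13305 genes. The X-linked wds, with 3 copies in metafemales and 2 in diploid females, had a ratio of 1.07. The other members lay between 0.823 for MBD-R2 and 1.23 for Rcd5, and the median log2 ratio was 0.10 for the members and -0.19 for all genes. The low nsl1 value followed row r29664, and JIL-1 was higher in both of its transcripts in that table. Markers of dividing cells summed to 157 CPM in metafemales and 304 CPM in diploid females, and their part in these values was not tested.

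The MSL2 comparisons set each aneuploid group with the transgene against the same karyotype without it. Across the 3 backgrounds the sums of the 6 NSL genes all stayed within 1.5-fold, and only JIL-1 passed it. Under alternatives 4 NSL values did pass: MBD-R2 in metafemales with equal column totals (log2 ratio -0.75), and, with the transcript of highest mean, dgt1 in the female trisomy (-0.95) and nsl1 in the male trisomy (-1.06) and in metafemales (-6.76). Unr also passed, at -0.75 in the female trisomy on transcripts with a mean in every group. In the male trisomy Unr went from -0.24 to 1.47 on transcripts with a mean in both groups. In metafemales Unr was at 0.62 with the trimmed mean set to 0 and at 0.69 with the transcript of highest mean. In the female trisomy 0 of 8 members passed the fold, where 13.8% of all genes were higher and 21.8% lower, and the lowest ratios were 0.699 for JIL-1, 0.776 for Unr and 0.827 for Rcd5. In the male trisomy JIL-1 was 2.39-fold higher, which made 1 member higher and 0 lower against a background of 12.5% and 11.5%, and JIL-1 exceeded 96.0% of all genes with a ratio. In metafemales JIL-1 was 1.70-fold higher, again with 1 member higher and 0 lower against 13.3% and 16.3%, and Unr at 1.43 and MBD-R2 at 0.715 were next. Over genes of at least 10 CPM the shares were 9.81% higher and 16% lower in the female trisomy. They were 7.13% and 5.91% in the male trisomy, and 9.87% and 9.52% in metafemales. The JIL-1 sum was thus lower with the transgene in the female trisomy and higher in the male one, a difference that could not be tested, and on transcripts with a mean in every group the male log2 ratio was -0.13, below 0 as in females. Salivary glue genes went from 8029 to 791 CPM and midgut genes from 13703 to 5148 CPM in the female trisomy, and from 8184 to 11093 CPM and 10768 to 10634 CPM in the male one, and their part in these values was not tested. In the same order of backgrounds, the members' median log2 ratios were -0.17, 0.03 and -0.04, beside -0.12, 0.03 and -0.09 for all genes. With equal column totals the metafemale JIL-1 log2 ratio was 0.50, no longer past 1.5-fold, and in the deposited columns that of MSL2-metafemales had the highest sum.

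**Figure D2:**
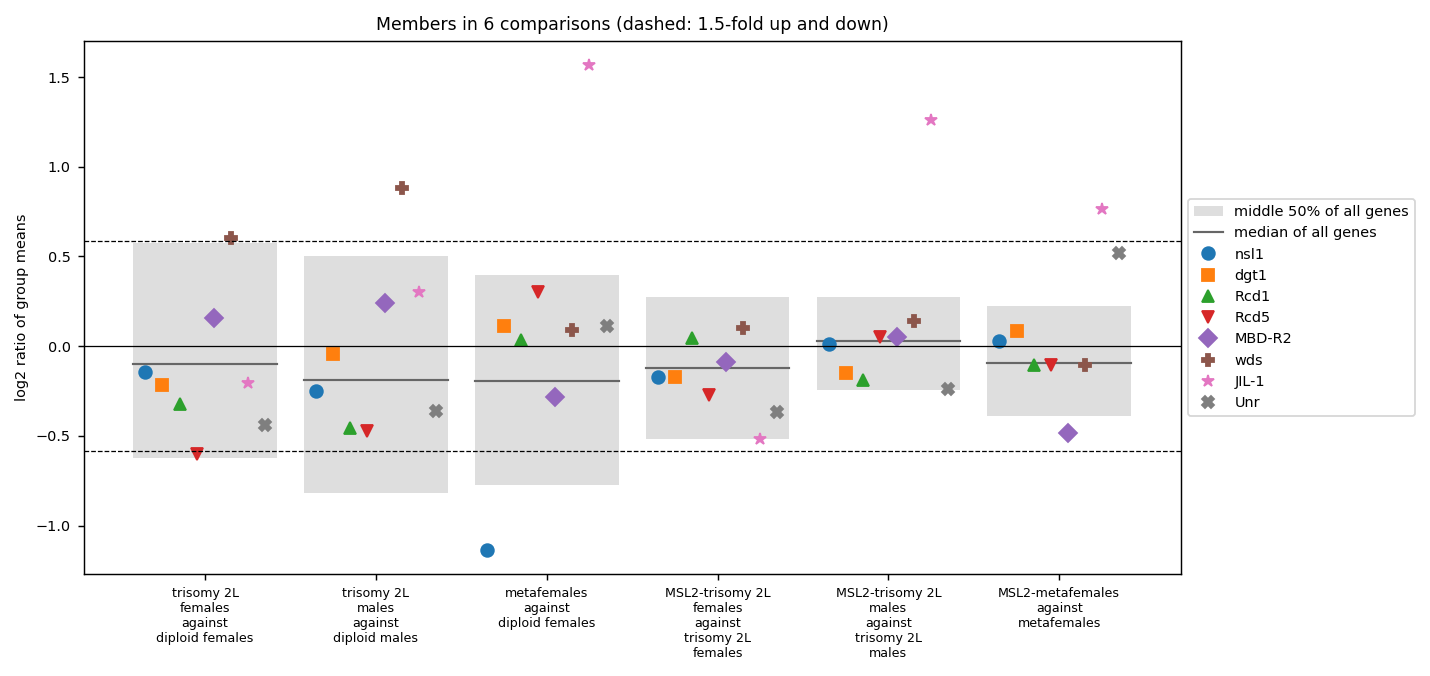
Symbols give the log2 ratio of 2 group means for each gene in the 3 aneuploid against diploid comparisons and the 3 MSL2 comparisons, the grey boxes span the interquartile range of all genes in the table, grey lines are their medians, and dashed lines mark 1.5-fold. JIL-1 stands at 1.57 in metafemales and 1.26 in MSL2-trisomy 2L males, and the 6 NSL genes lie inside the dashed lines in all 3 MSL2 comparisons.

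Set against diploids, the MSL2 groups share their controls with the trisomy and metafemale comparisons above, so their values are given side by side only. The diploids were sequenced as single-end reads and the MSL2 groups as paired-end reads, the trisomy 2L and metafemale groups as both, and read type and genotype cannot be told apart in these ratios. Read type may also have differed in the aneuploid to diploid and MSL2 ratios above, since which libraries entered each mean is not known. In MSL2-trisomy 2L females wds was 1.63-fold higher and Rcd5, JIL-1 and Unr were at 0.546, 0.605 and 0.573 of the diploid mean, 1 higher and 3 lower of 8 against 27.2% and 35.2% of all genes. In MSL2-trisomy 2L males wds was 2.03-fold and JIL-1 2.94-fold higher, while Rcd1 and Unr were at 0.638 and 0.660, 2 higher and 2 lower against 26% and 33.4%. With the trimmed mean set to 0 no member was lower there, and the Rcd1 log2 ratio of -0.65 was -0.05 with the transcript of highest mean. In MSL2-metafemales JIL-1 was 5.03-fold and Unr 1.55-fold higher, while nsl1 and MBD-R2 were at 0.463 and 0.588, 2 higher and 2 lower against 21.2% and 38.9%. Only wds, among the members, was on the same side of 1.5-fold in both trisomy groups, with and without the transgene. The Unr value in MSL2-trisomy 2L males depended on transcript rows that had no mean there, as described next.

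The tables list transcripts, and several of the differences above lay in 1 transcript. The 8 genes held 30 transcript rows in the autosomal table, 19 of them with a mean in every column, and 27 rows in the sex chromosome table, 20 of them with every mean. The authors removed values of 0 or below before averaging, so a row without a mean is not the same as a measured 0, and how many libraries it takes to leave a mean blank is not given in the sources used here.

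For JIL-1 the sexes differed most in JIL-1-RC and JIL-1-RB. JIL-1-RB and JIL-1-RC share all 7 coding exons and 3621 coding bases. RC has 1403 exon bases that RB lacks, 739 of them at most beyond the 3′ end of RB, and RB has none of its own. In the female columns of the autosomal table JIL-1-RC was at 8.11 CPM in diploids, 16.5 in trisomy 2L and 16.5 in MSL2-trisomy 2L, and in the male columns at 0.921, 0.794 and 0.435 CPM. JIL-1-RB was at 18.6, 16.7 and 62.9 CPM in the same male columns, 1.69 CPM in trisomy 2L females, and had no mean in the other female columns. JIL-1-RA did not separate the sexes, at 27.2, 12.4 and 4.92 CPM in the diploid, trisomy 2L and MSL2-trisomy 2L females and 6.68, 14.7 and 13.7 CPM in the males. The 2.39-fold JIL-1 difference in MSL2-trisomy 2L males lay in RB, and the log2 ratio without RB was -0.13. Because JIL-1-RB has no exon base outside RC, reads in shared sequence had to be divided between these rows by the estimation. In the sex chromosome table, which lists RC and RA but not RB, JIL-1-RC was at 6.92 CPM in diploid females, 0.533 in diploid males, 32.5 in metafemales and 68.1 in MSL2-metafemales. RC thus carried the metafemale difference with MSL2, while JIL-1-RA went from 10.6 to 5.09 CPM.

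For wds the trisomy difference lay in wds-RA. This transcript was at 11.3 CPM in diploid females and 23.5 in trisomy 2L females, and at 9.11 in diploid males and 24.2 in trisomy 2L males. The other transcript, wds-RB, has the same 3 coding exons and 339 more exon bases at its 3′ end. It was at 7.13 and 4.50 CPM in diploid and trisomy 2L females and at 6.81 and 5.06 in diploid and trisomy 2L males, the opposite direction. Because wds-RA has no exon base of its own, reads in shared sequence had to be divided between the rows by the estimation.

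The Unr transcripts differed between trisomy 2L males with and without the transgene. Unr-RB and Unr-RE share all 9 coding exons, and RE has 910 further exon bases. Unr-RB has no exon base outside RE, so here too reads in shared sequence had to be divided by the estimation. In trisomy 2L males RB was at 36.3 CPM, RE at 17.4 and Unr-RD at 2.80. In MSL2-trisomy 2L males RE was at 45.7 CPM and neither RB nor RD had a mean, while the gene sum went from 57.5 to 48.7 CPM. In the 2 female trisomy groups RB was at 31.7 and 26.7 CPM without and with the transgene. The minor transcript Unr-RC was at 0.141 and 0.0980 CPM in trisomy 2L females and males and at 3.09 and 3.00 CPM with the transgene. In metafemales RB was at 87.1 CPM and in MSL2-metafemales at 141, and this row made up the higher Unr sum there.

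**Figure D3:**
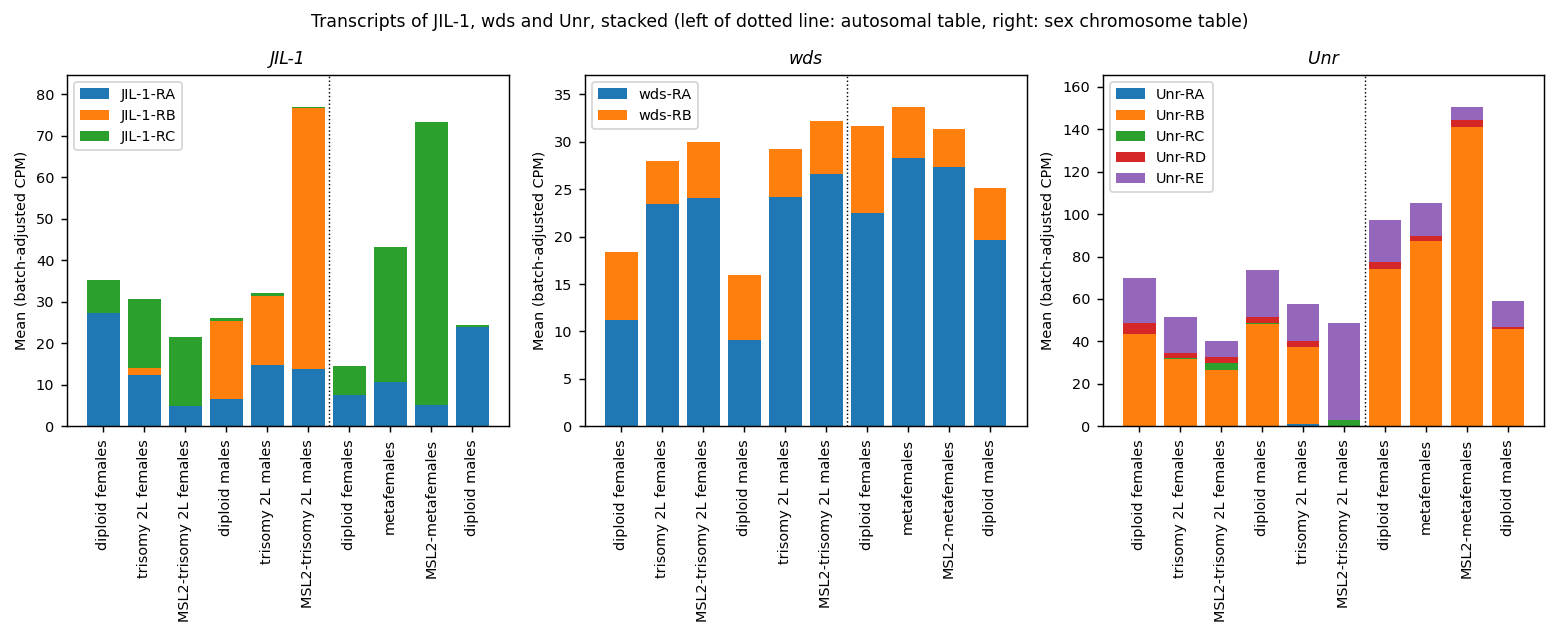
Stacked bars give the mean level of each transcript of JIL-1, wds and Unr in batch-adjusted CPM, rows without a mean are drawn as no bar, and the dotted line parts the autosomal table (left) from the sex chromosome table (right). JIL-1-RB (62.9 CPM) makes up most of JIL-1 in MSL2-trisomy 2L males and JIL-1-RC (68.1 CPM) in MSL2-metafemales, and Unr-RE (45.7 CPM) stands where Unr-RB is blank.

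The sex comparison paired male and female means of 1 karyotype: diploid, trisomy 2L and MSL2-trisomy 2L of the autosomal table, and diploid of the sex chromosome table. MBD-R2 was higher in males in all 4 pairs, by 1.59-fold, 1.68-fold, 1.86-fold and 1.21-fold in that order. The same held for dgt1, at 1.38, 1.56, 1.59 and 1.56, and for Rcd5, at 1.21, 1.32, 1.65 and 1.01. These 3 of 8 members compare with 23.6% of the 11224 genes with all means, and with 16.1% of the 4626 genes at 10 CPM or more. No member was lower in males in all 4 pairs, where 8.88% of all genes were. The X-linked wds, with 1 copy in males and 2 in females, had ratios of 0.866, 1.05, 1.08 and 0.793, and with the trimmed mean set to 0 the ratios above 1 turned to log2 ratios of -0.18 and -0.25. JIL-1 had ratios of 0.740, 1.05, 3.60 and 1.68, and all 4 depended on the rows summed. The first was at a log2 ratio of -2.22 on transcripts with a mean in both groups. The second was at -0.90 on transcripts with a mean in every group and at 3.31 with the transcript of highest mean. The third turned to a log2 ratio of -0.60 on transcripts with a mean in both groups and the fourth to -3.70 with the transcript of highest mean. With that transcript dgt1 also turned, to log2 ratios of -0.08 and -0.72 in the diploids of the autosomal and sex chromosome tables. The other 3 members had ratios of 0.900 to 1.31 in the autosomal table and 0.514 for Rcd1, 0.606 for Unr and 0.615 for nsl1 in diploids of the sex chromosome table. In the autosomal diploids the Rcd1 log2 ratio turned from 0.39 to -0.69 on transcripts with a mean in both groups. With the transcript of highest mean it was -0.89. On transcripts with a mean in both groups Rcd1 was at -0.23 in trisomy 2L and -0.55 in MSL2-trisomy 2L.

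By comparison, 1 member was higher in males and 0 lower in diploids of the autosomal table, where 30.8% of genes were higher and 9.5% lower. In trisomy 2L, 2 were higher (background 31.8% higher, 7.22% lower), and in MSL2-trisomy 2L, 4 were higher (background 37.2% and 11%). The sex chromosome table had 2 higher and 3 lower members among its diploids (background 24.1% and 19.2%). Setting the trimmed mean of gene ratios to 0 moved all genes by -0.20, -0.25 and -0.35 on the log2 scale in these 3 pairs, and MBD-R2 then lay within 1.5-fold in each, at log2 ratios of 0.47, 0.50 and 0.54. JIL-1 in diploids then passed the fold on the female side, at -0.63. The summed spermatocyte markers also lay far higher in the male means, as given above, and their part in the male levels of MBD-R2, dgt1 and Rcd5 was not tested.

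**Figure D4:**
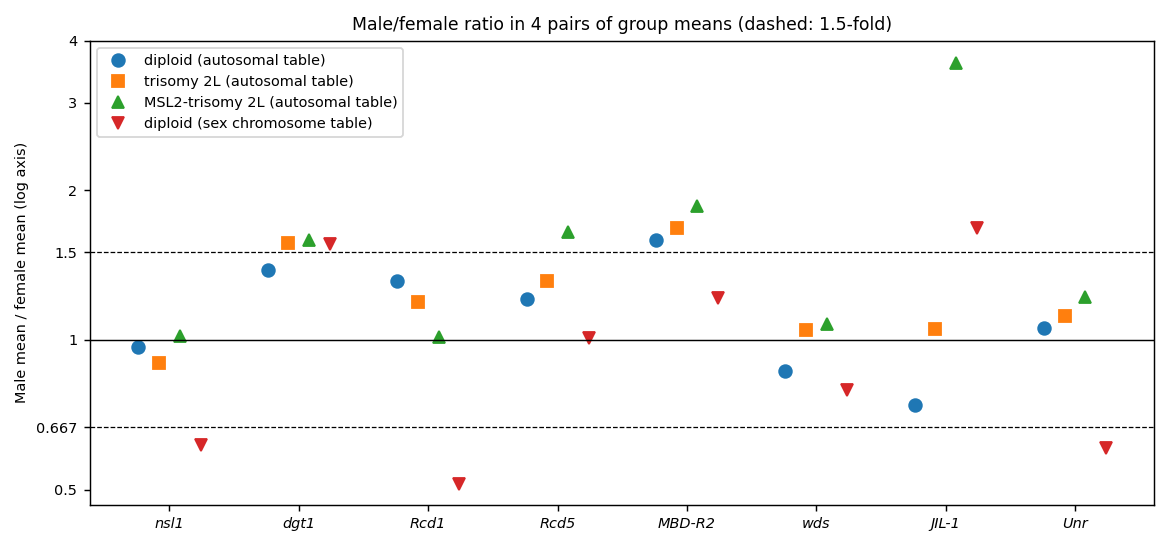
Symbols give the male mean divided by the female mean on a log axis for each gene in 4 pairs of group means, with dashed lines at 1.5-fold. MBD-R2, dgt1 and Rcd5 lie above 1 in all 4 pairs, and JIL-1 ranges from 0.740 to 3.60.

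Single transcripts separated the sexes further. Of the 17 member transcripts with a mean in all 10 columns, 2 had every male mean above every female mean of the same table and 2 had every male mean below, where 7.92% and 2% of the 15923 transcripts with every mean did so. The higher ones were the only MBD-R2 transcript and the dgt1 row r33667, and the lower ones were JIL-1-RC and the nsl1 row r29660. Row r33667 was at 4.10 and 10.6 CPM in diploid females and males, 0.407 and 7.79 in trisomy 2L, 1.55 and 7.03 in MSL2-trisomy 2L, and 2.89 and 11.7 in diploids of the sex chromosome table. Row r33666 of dgt1 was at 10.5 and 9.96 CPM in diploid females and males of the autosomal table, 11.3 and 13.1 in trisomy 2L, 5.85 and 11.3 in MSL2-trisomy 2L, and 7.12 and 4.34 in the other diploids. The higher male sum of dgt1 thus lay in r33667 in the diploids, and in both rows in MSL2-trisomy 2L. The Rcd1 rows r15679, r15680 and r15684 had means in all 3 male columns of the autosomal table and in none of its female columns, and r15679 reached 17.5 CPM in diploid males. Row r15677 was at 23.5 and 12.7 CPM in diploid females and males of the autosomal table, 12.8 and 12.5 in trisomy 2L and 11.5 and 12.3 in MSL2-trisomy 2L. Row r15681 was at 8.81 and 8.96 CPM in the autosomal diploids and at 19.95 and 3.27 CPM in the others, so neither row had a steady difference between the sexes.

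The same genotype was set side by side in both tables. The methods describe separate diploid libraries for the trisomy 2L and the metafemale series, so libraries and normalisation cannot be told apart here. Diploid females differed by more than 1.5-fold between the tables for 5 of 8 members, with nsl1 at 3.22 and JIL-1 at 0.411 of the autosomal mean, where 52.4% of all genes did. Diploid males did so for 4 of 8, with Rcd1 at 0.359 and nsl1 at 2.04, where 56.4% of genes did. Levels were therefore ordered within a table. For the profiles that follow, log2 levels were centred within each table, so a difference in level between the tables does not enter them.

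Profiles over the 10 means were compared as a description, without a test, since the means share controls, libraries and normalisation. The average profile of the 6 NSL genes was most like that of CG1316 (Pearson r = 0.93), XRCC1 (0.93), GATAd (0.92), Bem46 (0.92) and Npl4 (0.92) among 4617 genes compared. The r of each NSL gene to the mean of the other NSL genes ran from -0.46 for wds to 0.47 for MBD-R2, and 1120 of the genes compared had a higher r than MBD-R2. The pairs most alike were Rcd1 with Unr (0.83) and dgt1 with MBD-R2 (0.71), and the least alike was nsl1 with JIL-1 (-0.71).

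Related genes were counted in the 3 MSL2 comparisons. Over all genes, 13.8% were higher and 21.8% lower in the female trisomy. These shares were 12.5% and 11.5% in the male trisomy, and 13.3% and 16.3% in metafemales. The gene that the transgene expresses is msl-2, so its rise was set by the design. Of the 7 MSL complex genes, in the female trisomy 1 was higher (msl-2) and 1 lower, the helicase gene mle (0.489). In the male trisomy 2 were higher, msl-2 and the non-coding RNA gene roX2 (1.77). In metafemales 2 were higher, msl-2 and roX2 (2.18, from 0.331 CPM), and 3 lower, mle (0.419), msl-3 (0.613) and roX1 (0.615). The enzyme shared by both complexes, mof, was within 1.5-fold in all 3.

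Of the chromatin partners with both means (11 in each comparison), gfzf was lower in all 3, at 0.543 and 0.598 in the female and male trisomy and 0.584 in metafemales. The nuclear pore gene Nup153 was lower in trisomy 2L females (0.542) and metafemales (0.517), the histone methyltransferase gene Set2 was higher in trisomy 2L females (1.69), and the pore gene Mtor was 13.7-fold higher in metafemales. Of the 3 partners of Unr in repression of msl-2, Sxl was at 0.478 in trisomy 2L females and Hrb27C at 3.76 in metafemales. Of the 10 genes of other complexes that hold wds, Hcf was lower in all 3 comparisons (0.522, 0.496 and 0.575), while Rbbp5 was at 0.427, 2.23 and 6.31. Set1 (0.548) and Ada2a (0.591) were also lower in the female trisomy, trr (0.631) in the male trisomy and Ada2a (0.552) in metafemales, where trx was at 2.96. Alternatives are given for the members only, so how far these ratios of related genes depend on the processing is not shown.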

How the data were processed

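Whole-larva RNA was sequenced by the authors as single-end reads for the first trisomy and metafemale series and as paired-end reads for the MSL2 series, and aligned with HISAT2 and quantified with StringTie on Release 6. Strand of the libraries is not given in the sources used here. The deposited values are batch-adjusted CPM per transcript, with values of 0 or below removed and libraries averaged by the authors to 1 mean per group. Because the adjustment left column totals unequal, with one above what CPM allows, the deposited values are recorded as a score made by the authors on the CPM scale. Columns of the authors' ratios between groups were not used. The number of per-sample columns outside the labels was 0.

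Transcript rows were summed per gene, blanks counting as nothing, and log2 ratios of 2 means were taken within a table with Python 3.11.15, pandas 2.3.3 and numpy 2.4.6. The script was tested on simulated data. In all, 13 comparisons and 8 alternatives (3 scalings, 2 transcript selections, the transcript of highest mean, and pseudocounts of 0.5 and 1 CPM) were computed, and the background was counted over all genes with both means. All 8 members were named in every mean, their transcripts where they held at least 20 percent of the gene or where a difference rested on them (chosen after their values were seen), and related genes where they passed 1.5-fold in an MSL2 comparison. Members and lists were chosen with earlier results of these data known. No sequences are shown.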

Additional observations from a re-analysis of the deposited data

How the results depend on the processing

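No paired analysis was possible because the tables hold 1 mean per group, and for the same reason no library could be left out in turn. Of 104 member ratios, 31 were past 1.5-fold and 12 of these were past it under every alternative. The median of all genes moved by -0.27 to 0.077 (log2) with equal column totals, by -0.35 to 0.31 with the trimmed mean set to 0, and by -0.15 to 0.036 without the 100 highest transcripts. Of the 104 member log2 ratios, 7 changed sign with equal totals, 13 with the trimmed mean set to 0, 12 without the 100 highest transcripts, 7 on transcripts with a mean in both groups, 12 on those with a mean in every group and none with a pseudocount, and 17 of 96 did so with the transcript of highest mean. Those past 1.5-fold that did so were the following, all in settings that changed which transcript rows were summed. On transcripts with a mean in every group JIL-1 in MSL2-trisomy 2L males against trisomy 2L males went from 1.26 to -0.13. On transcripts with a mean in both groups, or in every group, Unr in MSL2-trisomy 2L males against diploid males went to 1.12, and JIL-1 in MSL2-trisomy 2L males against MSL2-trisomy 2L females to -0.60. With the transcript of highest mean, diploid males against females of the sex chromosome table gave -0.72 for dgt1 and -3.70 for JIL-1.

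Median log2 ratios over the members moved by more than 1.2-fold in some settings. With the transcript of highest mean they were 0.11 in trisomy 2L females against diploids, -0.69 in MSL2-trisomy 2L females against diploids, 0.45 in MSL2-metafemales against diploids, -0.46 in diploid males against females of the sex chromosome table, and 0.18 in MSL2-trisomy 2L males against diploids. The last was 0.0520 on transcripts with a mean in both groups and 0.11 in every group. With the trimmed mean set to 0 they were 0.12 in MSL2-trisomy 2L males against MSL2-trisomy 2L females and 0.40 in MSL2-metafemales against diploids, and with equal totals -0.31 in MSL2-metafemales against metafemales. The cause was not tested. Members past the fold in MSL2-trisomy 2L males against females numbered 4, and 1 with the trimmed mean set to 0.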
